A study of Mus musculus with 4 samples.

Results

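The RNA levels of 51 lysosomal genes in CD301b macrophages of mouse wounds were compared with those in wound immune cells negative for F4/80. The 51 genes, called members here, were taken by symbol from a fixed list of lysosomal hydrolases, their activators, lysosomal membrane proteins and sorting factors, with cysteine cathepsins and the proton pump left out. All 51 had rows in the deposited table of 24358 gene symbols, and all 51 had at least 1 transcript that the authors had tested, among 13039 genes with a tested transcript. The 51 genes had 74 transcripts in the table, of which 70 were tested. CD301b macrophages, a wound macrophage subset named for the C-type lectin CD301b, and immune cells lacking F4/80, the usual surface mark of mouse macrophages, were sorted by flow cytometry from the dermis of wound beds on day 5. The mice were C57/Bl6 males aged 7 weeks, and 2 libraries were sequenced for each population. No wound macrophages lacking CD301b were sampled, so features of the subset and of wound macrophages at large cannot be told apart. The deposited table gives 1 FPKM value (fragments per kilobase of transcript scaled to mapped fragments) for each transcript and population, so no error between libraries accompanies any level here, and the depth of the libraries is unknown. The labels do not say that libraries came from separate mice, so the p-values may measure technical spread alone.

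Lysosomes are acidic organelles in which glycosidases, sulfatases, lipases, proteases and nucleases take apart material that a cell engulfs or recycles. Most soluble lysosomal enzymes receive a mannose phosphate tag in the Golgi apparatus, are carried by mannose phosphate receptors or sortilin, and work inside a membrane lined by heavily glycosylated proteins such as LAMP1 and LAMP2. Macrophages hold many lysosomes because they digest dead cells and debris, and in a wound these include spent neutrophils and damaged matrix.

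The RNA of the sort markers was read first. Adgre1, which encodes F4/80, was 557 FPKM in CD301b macrophages and 151 FPKM in F4/80-negative cells. In F4/80-negative cells Adgre1 stood at percentile 96.1 of tested genes, so no ratio here is against cells free of macrophage marker RNA. Mgl2, which encodes CD301b, went against the name of the sort, at 49.2 FPKM in CD301b macrophages and 103 FPKM in F4/80-negative cells. Of 10 macrophage markers, 9 were higher in CD301b macrophages and none was lower, and their FPKM summed to 7513 in CD301b macrophages and 2710 in F4/80-negative cells. All 10 were above 0 in both populations, the lowest being Cd163 at 34.9 and 7.13 FPKM in the same order. Of 9 dendritic cell markers, 7 were lower, with sums of 66.9 FPKM in CD301b macrophages and 256 FPKM in F4/80-negative cells, and of 6 tested mast cell markers 5 were lower, with sums over 7 markers of 19.8 and 56.3 FPKM. The 7 neutrophil markers in the table summed to 2110 FPKM in CD301b macrophages and 3848 FPKM in F4/80-negative cells. Of 6 tested, 2 were lower and 1 was higher. The 2 lower ones, S100a8 (938 and 1725 FPKM) and S100a9 (1092 and 2025 FPKM), made up most of these sums. By level, 4 of the 7 were above F4/80-negative cells and 3 below. Fibroblast markers were 4200 and 6197 FPKM in sum, with 1 of 6 lower. The 6 T and natural killer cell markers found were 11.9 and 44.9 FPKM in sum, with 1 of 4 tested lower. That was Klrd1, at 4.18 FPKM in CD301b macrophages and 37.1 FPKM in F4/80-negative cells, which made up most of the second sum. Cd2, the next in level, was 4.05 and 3.95 FPKM. Of these 6 markers, 3 were above F4/80-negative cells by level and 3 below. None of the markers in these lists was at 0 in either population. These differences in marker RNA ran beside every result below, and their part in the lysosomal differences was not tested.

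Higher in CD301b macrophages were 30 of the 51 lysosomal genes, and Arsb alone was lower. The other 20 did not pass the threshold. A call in either direction required 1 or more transcripts with an adjusted p of at most 0.05 that way, none the other way, and summed FPKM on the same side. In genes with several transcripts it is therefore no test of the sum. The p-values were those of Cuffdiff in the authors' deposited table, adjusted over all tested transcripts by the Benjamini-Hochberg method. By the same rule 11.0% of all tested genes were higher and 6.20% were lower, against 58.8% and 1.96% of the members. Among tested genes at a mean of 10 FPKM or more, 15.2% were higher and 6.69% lower. Of the member transcripts, 33 were higher and 1 was lower, where 9.10% and 5.14% of all tested transcripts were. The median log2 fold of the members, on the log2(FPKM + 1) scale, was 0.63, and that of all tested genes was 0.05. Summed FPKM was above that of F4/80-negative cells in 46 of 51 members, compared with 55.3% of all tested genes. In 19 members the adjusted p was 0.000999, the floor set by the authors' deposited table after Benjamini-Hochberg adjustment.

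The differences were of moderate size. Ratios of summed FPKM ranged from 1.51-fold to 2.70-fold among the 30 higher members, all under the 3.69-fold of Adgre1. The ratios of the 10 macrophage markers, Adgre1 among them, ranged from 0.883 to 4.89. At least 1.5-fold higher on the FPKM + 1 scale were 29 members, and 1 was at least 1.5-fold lower, against 9.09% and 7.30% of all tested genes. At least 2-fold higher on that scale were 11 members, and none was 2-fold lower, against 2.55% and 2.32% of all tested genes. The 51 genes together made up 2.76% of all FPKM in CD301b macrophages and 1.57% in F4/80-negative cells, with sums of 15185 and 8162 FPKM. In bulk samples of this kind, fewer cells of a type and less RNA per cell cannot be told apart. The 6 most abundant members in CD301b macrophages, Psap, Ctsd, Lgmn, Lamp1, Grn and Laptm5, held 70.1% of the members' FPKM there and 63.9% in F4/80-negative cells. The other 45 members summed to 4538 FPKM in CD301b macrophages and 2943 FPKM in F4/80-negative cells (1.54-fold). The order of the members by level was nearly the same in both populations (Spearman rho of 0.96 over 51 genes, a description across genes that share the same libraries).

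**Figure D1:**
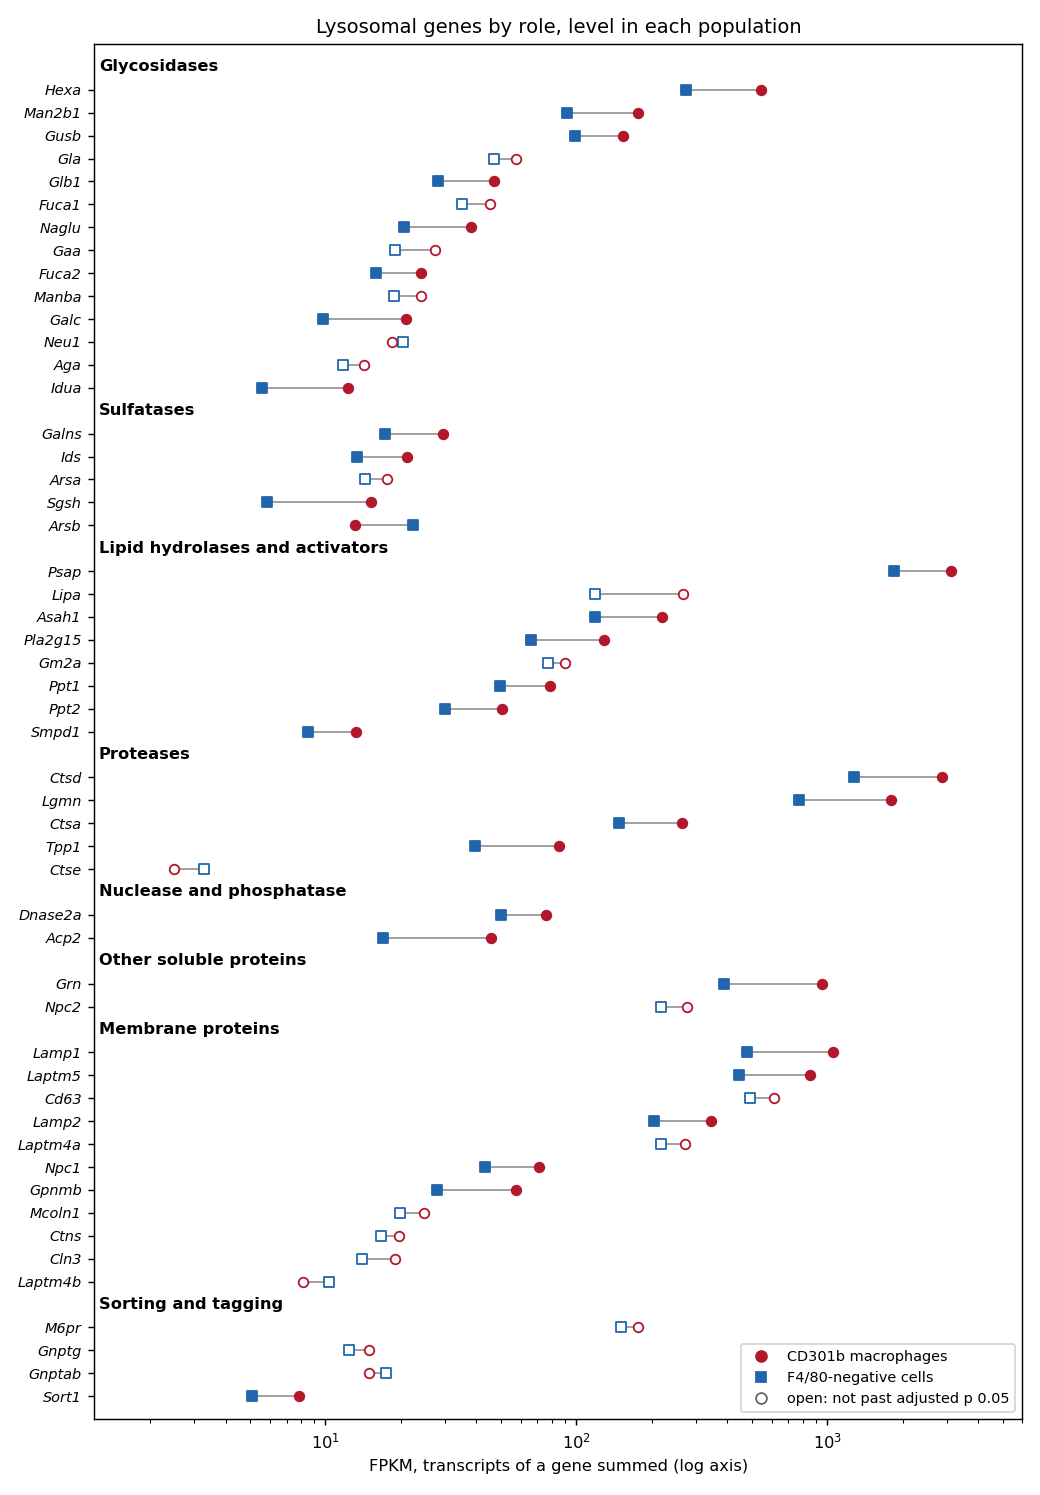
FPKM of each of the 51 genes, transcripts summed, in CD301b macrophages (red circles) and F4/80-negative cells (blue squares) on a log axis, grouped by role. Filled symbols mark genes past an adjusted p of 0.05, and in 46 of 51 genes the red circle lies to the right of the blue square.

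The counts by role that follow stand beside 11.0% of all tested genes higher and 6.20% lower. Glycosidases, which trim sugars from glycoproteins, glycolipids and glycosaminoglycans, were grouped with the amidase Aga. In this group of 14 genes, 8 were higher and none was lower, with a median log2 fold of 0.60. Hexa, the alpha subunit of beta-hexosaminidase that removes a sugar from the ganglioside GM2, was the most abundant of them. It reached 543 FPKM in CD301b macrophages and 273 FPKM in F4/80-negative cells, a 1.99-fold difference. Man2b1, the lysosomal alpha-mannosidase, was 176 FPKM in CD301b macrophages and 92.0 FPKM in F4/80-negative cells (1.92-fold). Gusb, the beta-glucuronidase of glycosaminoglycan breakdown, was 153 FPKM in CD301b macrophages against 98.8 FPKM in F4/80-negative cells. Galc, which removes galactose from galactosylceramide, and Idua, the alpha-iduronidase of heparan and dermatan sulfate, had the largest ratios of this group. Galc was 21.0 FPKM in CD301b macrophages and 9.75 FPKM in F4/80-negative cells (2.15-fold). Idua was 12.3 and 5.60 FPKM in the same order (2.20-fold).

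Naglu, the glucosaminidase of heparan sulfate, was 38.1 FPKM in CD301b macrophages and 20.6 FPKM in F4/80-negative cells (1.85-fold). Glb1, the acid beta-galactosidase, was 47.1 FPKM in CD301b macrophages and 28.1 FPKM in F4/80-negative cells (1.68-fold). Fuca2, a secreted fucosidase, was 24.0 FPKM in CD301b macrophages and 15.9 FPKM in F4/80-negative cells, whereas Fuca1, the tissue fucosidase of lysosomes, was 45.5 and 34.9 FPKM and not past the threshold. The difference between the 2 fucosidases in their ratios was not tested. Also not past the threshold in this group were Gla (alpha-galactosidase A), Gaa (the acid glucosidase of glycogen) and Manba (beta-mannosidase). So were Aga (the amidase that splits the sugar from asparagine) and Neu1 (lysosomal sialidase). Neu1 was 18.4 FPKM in CD301b macrophages and 20.3 FPKM in F4/80-negative cells, the only glycosidase whose level was not above that of F4/80-negative cells. Its partners in the lysosomal multienzyme complex, Glb1 and Ctsa, were both higher.

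Sulfatases, which remove sulfate from glycosaminoglycans and sulfatide, held the only lower member. Arsb, arylsulfatase B, which acts on dermatan and chondroitin sulfate, was 13.1 FPKM in CD301b macrophages and 22.2 FPKM in F4/80-negative cells, 1.70-fold lower. Its adjusted p was 0.00258 (Cuffdiff, the authors' deposited table). Of the exon bases annotated for Arsb, 32.3% also lie in Gm26527, a gene on the opposite strand. Gm26527 had no level under that symbol in the deposited table, and reads of the pair cannot be told apart without strand. Sgsh, the sulfamidase of heparan sulfate, was 15.2 FPKM in CD301b macrophages and 5.83 FPKM in F4/80-negative cells, a 2.60-fold difference and the second largest ratio among members. Card14 on the opposite strand covers 21.6% of its exon bases, at 0.0851 FPKM in CD301b macrophages and 0.0960 FPKM in F4/80-negative cells. Galns, the sulfatase of keratan sulfate, was 29.3 FPKM in CD301b macrophages against 17.2 FPKM in F4/80-negative cells. Ids, the iduronate sulfatase of heparan and dermatan sulfate, was 21.1 and 13.4 FPKM in the same order. Arsa, arylsulfatase A, was 17.6 FPKM in CD301b macrophages and 14.4 FPKM in F4/80-negative cells and was not past the threshold. Higher were thus 3 of 5 sulfatases.

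Genes of lipid breakdown were higher in 6 of 8 cases and lower in none, with a median log2 fold of 0.74. Psap encodes prosaposin, the precursor of the saposins that present sphingolipids to their hydrolases, and was the most abundant member. At 3116 FPKM in CD301b macrophages and 1853 FPKM in F4/80-negative cells (1.68-fold), it was the 10th most abundant gene of the CD301b macrophage column and the 32nd of the F4/80-negative column. Asah1, acid ceramidase, was 220 FPKM in CD301b macrophages and 119 FPKM in F4/80-negative cells (1.85-fold). Pla2g15, the lysosomal phospholipase, was 129 and 65.9 FPKM in the same order (1.96-fold). Ppt1, which takes palmitate off proteins, was 78.6 FPKM in CD301b macrophages and 49.6 FPKM in F4/80-negative cells (1.58-fold), and its relative Ppt2 was 50.4 against 29.96 FPKM (1.68-fold). Of the exon bases of Ppt2, 36.6% also lie in Gm20460 on the same strand. Gm20460 had no level under that symbol in the deposited table, so the Ppt2 value is uncertain. The Ppt1 transcript shares 32 of its 2381 exon bases (1.34%) with Cap1 on the opposite strand. Cap1 was 346 FPKM in CD301b macrophages and 174 FPKM in F4/80-negative cells, so part of the Ppt1 value is uncertain. Smpd1, acid sphingomyelinase, was 13.3 FPKM in CD301b macrophages and 8.50 FPKM in F4/80-negative cells. It lay closest to the threshold among called members, with an adjusted p of 0.0491 by Cuffdiff in the authors' deposited table.

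Lipa and Gm2a were the lipid genes not past the threshold. Lipa, the acid lipase that frees cholesterol from its esters, was 266 FPKM in CD301b macrophages and 119 FPKM in F4/80-negative cells. Its 2.24-fold ratio was the largest among uncalled members, and neither of its 2 transcripts passed (adjusted p of 0.131 and 0.175, Cuffdiff, in the authors' deposited table). Gm2a, the activator that lifts GM2 out of the membrane for beta-hexosaminidase, was 89.9 FPKM in CD301b macrophages and 77.2 FPKM in F4/80-negative cells.

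Lysosomal proteases outside the cysteine cathepsins were higher in 4 of 5 cases, with a median log2 fold of 1.09. Ctsd, the aspartic protease cathepsin D, was 2876 FPKM in CD301b macrophages and 1282 FPKM in F4/80-negative cells (2.24-fold). Of its exon bases, 34.4% also lie in Gm49369 on the same strand. No level stood under that symbol in the deposited table, so reads of the pair cannot be told apart and the Ctsd value is uncertain. Lgmn, legumain, an asparaginyl protease that trims cathepsins to their mature forms, was 1791 and 771 FPKM in the same order (2.32-fold). Tpp1, the tripeptidyl peptidase, was 85.0 FPKM in CD301b macrophages and 39.4 FPKM in F4/80-negative cells (2.16-fold). Ctsa, the carboxypeptidase that protects Neu1 and Glb1, was 265 FPKM in CD301b macrophages and 148 FPKM in F4/80-negative cells (1.79-fold). The second aspartic protease of the list, Ctse, was far lower in level than Ctsd and went the other way, at 2.49 FPKM in CD301b macrophages and 3.28 FPKM in F4/80-negative cells, not past the threshold. The main transcript of Ctsa shares 495 of its 3646 exon bases with Pltp, a gene on the opposite strand at 810 FPKM in CD301b macrophages and 261 FPKM in F4/80-negative cells (3.10-fold), so part of the Ctsa value is uncertain.

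Among the remaining soluble members, Acp2, the lysosomal acid phosphatase, had the largest ratio of the 51. Acp2 was 45.7 FPKM in CD301b macrophages and 16.9 FPKM in F4/80-negative cells, a 2.70-fold difference. Its transcript shares 14.0% of its exon bases with Ddb2 on the opposite strand, a gene at 22.1 FPKM in CD301b macrophages and 11.1 FPKM in F4/80-negative cells. Dnase2a, the acid nuclease with which macrophages degrade the DNA of engulfed cells, was 76.1 FPKM in CD301b macrophages and 50.2 FPKM in F4/80-negative cells (1.52-fold). Mast1 on the opposite strand covers 30.0% of its exon bases, at 0.823 FPKM in CD301b macrophages and 0.972 FPKM in F4/80-negative cells. Grn, progranulin, a secreted growth factor that is also cut into granulins inside lysosomes, was 954 FPKM in CD301b macrophages and 387 FPKM in F4/80-negative cells (2.47-fold). Npc2, the soluble carrier that hands cholesterol to Npc1, was 275 and 217 FPKM in the same order and was not past the threshold.

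Membrane proteins were higher in 5 of 11 cases and lower in none, with a median log2 fold of 0.41. Lamp1, a major glycoprotein of the lysosomal membrane, was 1056 FPKM in CD301b macrophages and 480 FPKM in F4/80-negative cells (2.20-fold). Laptm5, a lysosomal membrane protein of blood cells, was 854 FPKM in CD301b macrophages and 447 FPKM in F4/80-negative cells (1.91-fold). Gpnmb, a glycoprotein of lysosome-rich macrophages, was 57.6 and 27.8 FPKM in the same order (2.07-fold). Lamp2 was 343 FPKM in CD301b macrophages and 204 FPKM in F4/80-negative cells (1.69-fold), and Npc1, which moves cholesterol out of the lysosome, was 71.2 against 43.1 FPKM (1.65-fold).

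Not past the threshold were the tetraspanin Cd63, Laptm4a, Laptm4b, the cystine exporter Ctns, the calcium channel Mcoln1 and Cln3, the protein of a childhood storage disease. Cd63 was abundant in both populations, at 616 FPKM in CD301b macrophages and 494 FPKM in F4/80-negative cells. Of the relatives of Laptm5, Laptm4a was 271 FPKM in CD301b macrophages and 217 FPKM in F4/80-negative cells, and Laptm4b was 8.12 and 10.3 FPKM. Whether these ratios differ from that of Laptm5 was not tested.

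Of the 4 sorting and tagging genes, 1 was higher and none was lower, with a median log2 fold of 0.24. With 11.0% of all tested genes higher, 1 of 4 cannot be told from that share. Sort1, sortilin, a receptor that carries prosaposin and other cargo to lysosomes, was 7.86 FPKM in CD301b macrophages and 5.09 FPKM in F4/80-negative cells (1.54-fold). Gnptab and Gnptg encode subunits of the phosphotransferase that starts the mannose phosphate tag. Gnptab was 14.9 FPKM in CD301b macrophages and 17.4 FPKM in F4/80-negative cells, and Gnptg was 14.9 and 12.4 FPKM, neither past the threshold. Unkl on the opposite strand covers 49.5% of the annotated exon bases of Gnptg, at 2.17 FPKM in CD301b macrophages and 2.09 FPKM in F4/80-negative cells. M6pr, the smaller mannose phosphate receptor, was 176 FPKM in CD301b macrophages and 150 FPKM in F4/80-negative cells and was not past the threshold.

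**Figure D2:**
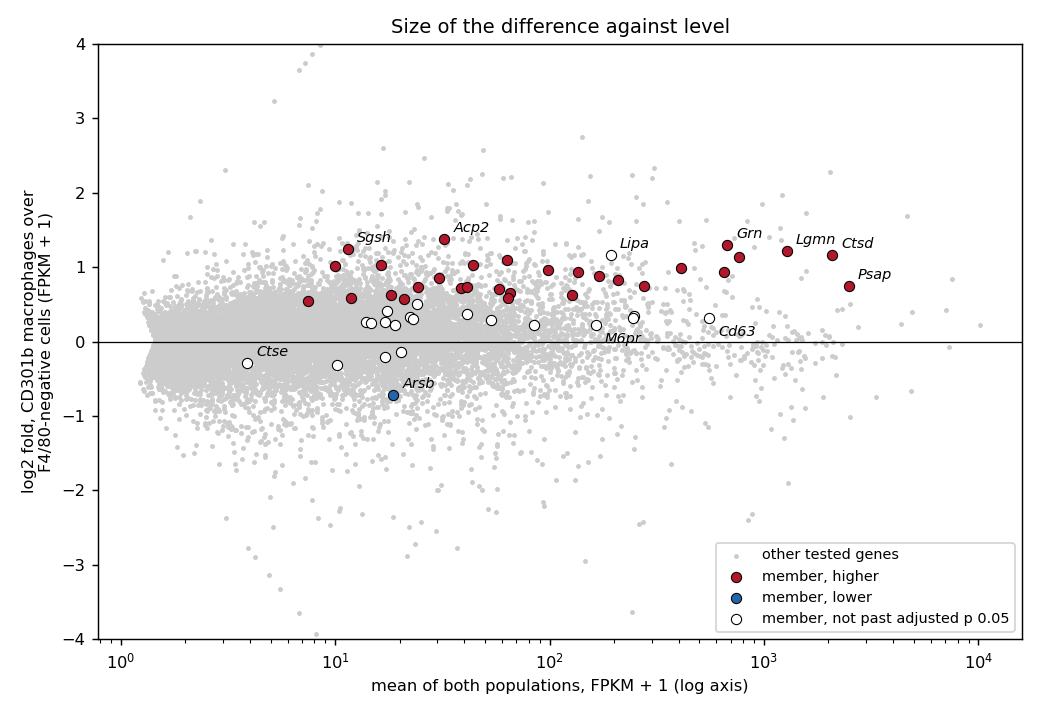
Log2 fold of CD301b macrophages over F4/80-negative cells, from FPKM + 1, against the mean level of both populations for all tested genes (grey) and the 51 members (higher in red, lower in blue, not past the threshold in white). The higher members lie between 0.54 and 1.38 and extend to the most abundant, Psap, while 59 genes outside the vertical axis are not drawn.

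By level, of the 17 members with the highest mean level, 12 were higher and the median log2 fold was 0.88. Of the 17 with the lowest mean level (2.88 to 19.9 FPKM), 7 were higher and 1 was lower, with a median log2 fold of 0.27. Across the 51 genes the Spearman rho between mean level and log2 fold was 0.44, against 0.10 across 11633 tested genes at a mean of 1 FPKM or more. Both are descriptions across genes measured in the same libraries, and an adjusted p is easier to reach at a high level.

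Transcripts of the same gene did not always share a call. Of the 13 members with several transcripts, Lamp2 and Galns owed their call to a transcript other than the one most abundant on the mean of both populations. The Lamp2 gene lies on chromosome X, 38399647 to 38456460 of GRCm38, on the minus strand, and its transcripts share their first exon and end in different last exons. NM_001017959, with its last exon at 38405062 to 38405571, was 153 FPKM in CD301b macrophages and 73.6 FPKM in F4/80-negative cells, a 2.08-fold difference past the threshold. NM_010685, with its last exon at 38419507 to 38421851, was 189 FPKM in CD301b macrophages and 129 FPKM in F4/80-negative cells, 1.46-fold, with an adjusted p of 0.0507, Cuffdiff, in the authors' deposited table. NM_001017959 thus made up 44.6% of Lamp2 FPKM in CD301b macrophages and 36.2% in F4/80-negative cells, and this difference in share was not tested.

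For Galns, NM_016722 was 14.9 FPKM in CD301b macrophages and 7.98 FPKM in F4/80-negative cells and passed, and NM_001193645 was 14.4 and 9.22 FPKM and did not (adjusted p of 0.0832, Cuffdiff, in the authors' deposited table). In Idua the transcript that starts at the inner first exon, NM_172997, was 7.19 FPKM in CD301b macrophages and 2.34 FPKM in F4/80-negative cells and passed, a 3.07-fold difference. The longer Idua transcript, NM_008325, was 5.11 and 3.26 FPKM in the same order and did not pass. The 2 annotated Lipa transcripts share 100% of the exon bases of the shorter, so that reads rarely tell them apart. NM_001111100 of Lipa was 131 FPKM in CD301b macrophages and 43.0 FPKM in F4/80-negative cells, and NM_021460 was 134 and 75.6 FPKM.

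Psap was dominated by NM_001146124, which held 93.4% of its FPKM in CD301b macrophages and 93.5% in F4/80-negative cells. Ppt2 had 5 tested transcripts, of which NM_001302393 (28.6 FPKM in CD301b macrophages and 10.3 FPKM in F4/80-negative cells) and NM_001302396 (16.0 and 7.16 FPKM) passed. The Ppt2 transcript NM_001302394 was 0.0212 FPKM in CD301b macrophages and 5.47 FPKM in F4/80-negative cells and was not past the threshold (adjusted p of 0.456, Cuffdiff, in the authors' deposited table). Sort1 passed through NM_019972, at 5.77 FPKM in CD301b macrophages and 3.17 FPKM in F4/80-negative cells, while NM_001271599 was 2.09 and 1.92 FPKM. In Glb1 the coding transcript NM_009752 (18.2 FPKM in CD301b macrophages and 9.80 FPKM in F4/80-negative cells) and the noncoding NR_108102 (28.6 and 18.3 FPKM) both passed.

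**Figure D3:**
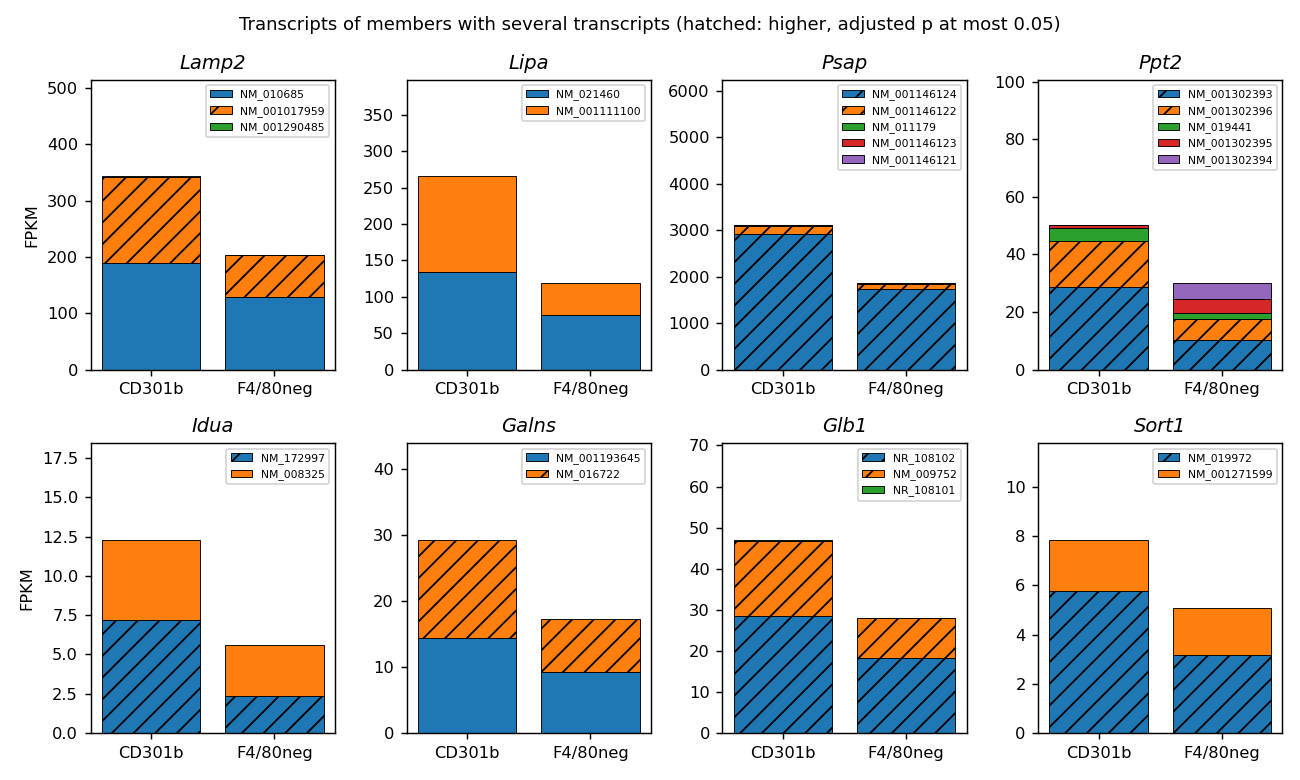
FPKM of each transcript, stacked, for 8 members with several transcripts, with CD301b macrophages left of F4/80-negative cells in each panel and hatching where the transcript was higher at an adjusted p of at most 0.05. Lamp2 shows a hatched smaller transcript over an unhatched larger one, and neither transcript of Lipa is hatched.

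Of 72 tested genes in 4 lists without members, 31 were higher and 1 was lower, with a median log2 fold of 0.46. The lists held other lysosomal proteins, sorting genes and the factors that regulate lysosomal genes. Of all tested genes, 11.0% were higher and 6.20% lower, with a median log2 fold of 0.05. At an adjusted p of at most 0.01 (Cuffdiff, the authors' deposited table), 19 of the 72 were higher. The share of all tested genes at that stricter threshold was not computed. Hydrolases outside the members were higher in 12 of 24 cases. Among them Arsg, a further sulfatase of heparan sulfate, was 10.7 FPKM in CD301b macrophages and 3.72 FPKM in F4/80-negative cells (2.88-fold). Man2b2, a second alpha-mannosidase, was 32.6 FPKM in CD301b macrophages and 15.9 FPKM in F4/80-negative cells (2.05-fold). The lower gene was Acp5, the tartrate-resistant phosphatase of osteoclasts and some macrophages, at 72.7 FPKM in CD301b macrophages and 226 FPKM in F4/80-negative cells, 3.11-fold lower. The 2 acid phosphatases Acp2 and Acp5 therefore stood on opposite sides.

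Membrane proteins outside the members were higher in 13 of 22 tested cases and lower in none, against 11.0% and 6.20% of all tested genes. Atp13a2, a polyamine exporter of the lysosome, was 55.4 FPKM in CD301b macrophages and 23.6 FPKM in F4/80-negative cells (2.35-fold), and the ion channel Tpcn1 was 27.7 and 12.9 FPKM (2.14-fold). The metal transporter Slc11a1 was 210 FPKM in CD301b macrophages and 110 FPKM in F4/80-negative cells (1.90-fold). Cd68, the macrophage relative of the LAMP proteins, was 872 FPKM in CD301b macrophages and 491 FPKM in F4/80-negative cells (1.78-fold). Sorting genes outside the members were higher in 4 of 17 cases, against the same 11.0% of all tested genes. Among the 4 were Cln6 and Cln8, which act in enzyme export from the endoplasmic reticulum, at 2.28-fold and 1.62-fold. Sumf1, the enzyme that activates every sulfatase, was 34.6 FPKM in CD301b macrophages and 20.6 FPKM in F4/80-negative cells (1.68-fold), and Gga3, a Golgi adaptor, was called at a ratio of 1.18.

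Of 9 MiT/TFE transcription factors and regulators, the family that switches on lysosomal genes, 2 were higher and none was lower, where 11.0% of all tested genes were higher. Tfec, a macrophage member of that family, was 21.2 FPKM in CD301b macrophages and 9.55 FPKM in F4/80-negative cells (2.22-fold). Tfe3 was 45.7 FPKM in CD301b macrophages and 32.7 FPKM in F4/80-negative cells (1.40-fold), with an adjusted p of 0.0159 (Cuffdiff, the authors' deposited table). The Tfe3 call rested on a transcript other than its most abundant. So 1 of the 9 was higher when the most abundant transcript had to pass, and 1 at an adjusted p of at most 0.01. Shares of all tested genes under these settings were not computed. Tfeb, chosen after its values were seen, was 7.97 and 7.81 FPKM in the same order and was not past the threshold.

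**Figure D4:**
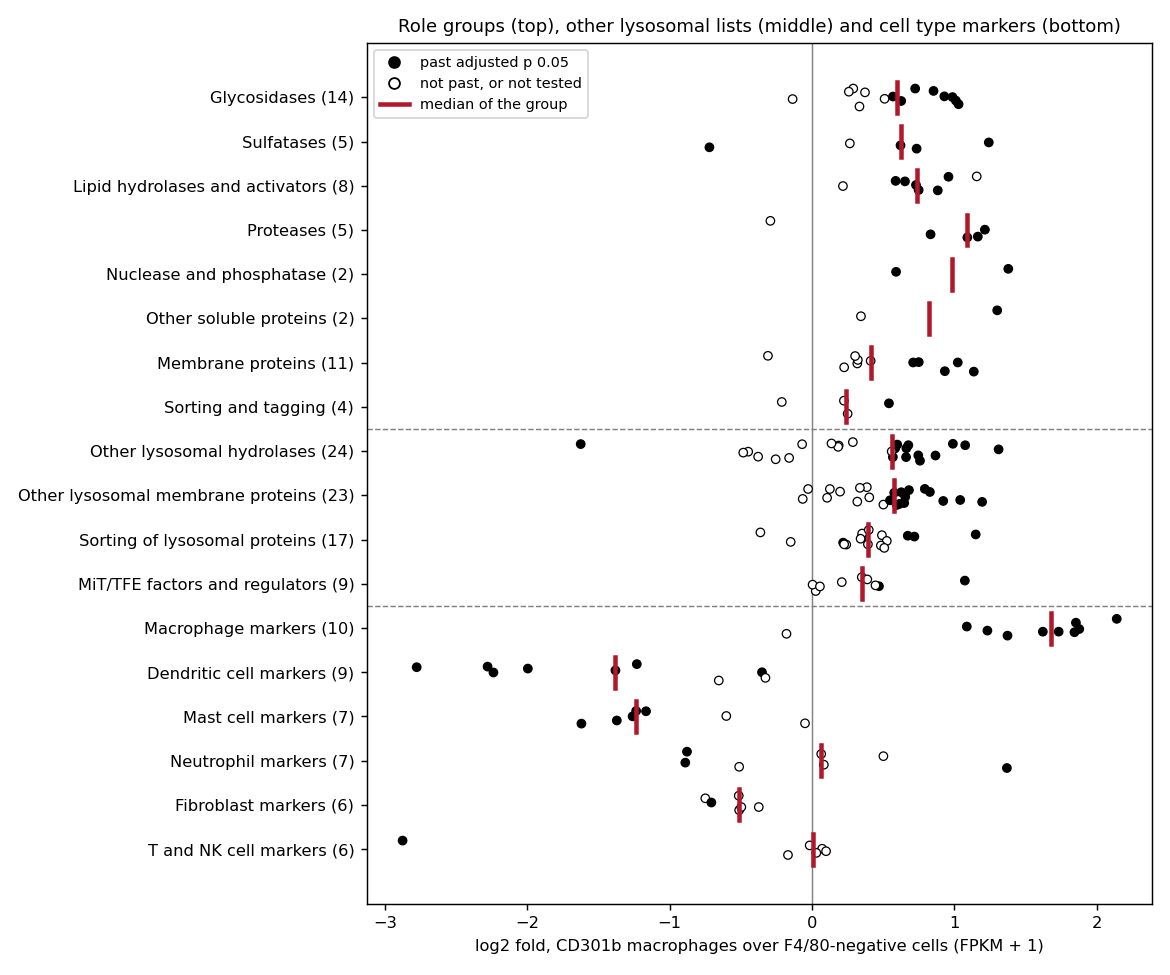
Log2 fold of CD301b macrophages over F4/80-negative cells, from FPKM + 1, for each gene of the 8 role groups, the 4 other lysosomal lists and the 6 marker lists, with the number of genes plotted in brackets. Red bars are medians, which run from 0.24 for sorting and tagging to 1.09 for proteases among the role groups and reach 1.68 for macrophage markers.

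The promoters of members were searched for the E-box that MiT/TFE factors bind. RefSeq promoters of GRCm38.p6, each 250 bases before and 50 bases after a start, were at hand for 43 members with 53 promoters, and Aga, Galns, Asah1, Ctse, Laptm4b, Npc1, M6pr and Sort1 had none. The E-box CACGTG reads the same on both strands and occurred in 14 of the 53 member promoters (26.4%), against 7.15% of all 32851 promoters and 9.72% of those of tested genes. TCACGTGA, the core of the lysosomal CLEAR element, contains the E-box. It occurred in 7 member promoters (13.2%), against 0.974% of all promoters and 1.82% of those of tested genes. The E-box was in 7 of 33 promoters of higher members (7 of 26 genes). It was in 7 of 19 promoters of members not past the threshold (6 of 16 genes). The core was in 2 of the 33 promoters of higher members (2 of 26 genes). It was in 5 of the 19 promoters of members not past the threshold (4 of 16 genes). These differences were not tested. A match describes letters and not a bound site.

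Windows of 30 bases around each core are shown because they hold the letters behind that count, with the E-box in capitals, 5′ to 3′ on the strand of the gene. Ctsa and Ctsd were higher, and Cln3, Gla, Gnptg and Mcoln1 were not past the threshold. The promoters belong to RefSeq starts, which need not be the starts of the transcripts behind a call. Both Ctsa windows lie beyond the first exon of its 2 transcripts, which ends at 164833196. The Cln3 window lies before the start of the shorter Cln3 transcript, which held 11.0% of Cln3 FPKM in CD301b macrophages. The main Cln3 transcript starts at 126584280.
Ctsa, chr2:164833749-164833778, plus strand: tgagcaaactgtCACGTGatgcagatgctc
Ctsa, chr2:164833766-164833795, plus strand: gatgcagatgctCACGTGaccagagctaca
Ctsd, chr7:142387908-142387937, minus strand: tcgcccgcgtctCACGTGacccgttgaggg
Cln3, chr7:126583340-126583369, minus strand: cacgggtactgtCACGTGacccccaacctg
Gla, chrX:134601182-134601211, minus strand: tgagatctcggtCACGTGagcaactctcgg
Gla, chrX:134601215-134601244, minus strand: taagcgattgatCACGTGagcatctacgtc
Gnptg, chr17:25240120-25240149, minus strand: ccggctgtcactCACGTGaccgtgagaccc
Mcoln1, chr8:3500462-3500491, plus strand: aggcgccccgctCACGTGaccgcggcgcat

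The Lamp1 promoter, chosen after the promoters were searched, stood out for its number of E-boxes. It held 4 within the 80 bases before its start, none with the full core, and only 8 of the 32851 promoters (0.0244%) held 4 or more. Lamp1 was 2.20-fold higher, as given above, and a link between E-boxes and level was not tested. The stretch is shown because the 4 E-boxes, in capitals, lie close together.
Lamp1, chr8:13159081-13159160, plus strand: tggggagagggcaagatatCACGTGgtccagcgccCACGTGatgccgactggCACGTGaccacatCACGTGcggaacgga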

How the data were processed

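The deposited table covers 34535 transcripts of both populations. Per the file headers it holds the authors' FPKM per transcript and population and the authors' unadjusted p-value, whose smallest value was 5e-05. Cuffdiff 2.0.2, TopHat2 2.0.2 and mm9 appear in the submitters' processing notes. The loci lie on GRCm38: 97.1% of accessions were found in RefSeq GRCm38.p6, 99.2% of these at an overlapping locus. How libraries were combined and whether counting used strand were not stated in the sources used here.

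FPKM was summed by symbol. The Benjamini-Hochberg adjustment over 16921 tested transcripts gave the same 2408 calls as the table. Members and lists were chosen with earlier results of these data known, and no list was tested. Named genes were all members and, from each other list, up to 4 called genes with the largest log2 fold at 5 FPKM or more. Other named genes are sort or cell type markers, overlapping genes, or genes said to be chosen after their values were seen. Exon overlaps used GENCODE M21 and promoters RefSeq. Some genes of the lists are not reported here. The planned comparison of protein sequences was not run. Code was checked on simulated data. Tools were scipy 1.17.1, numpy 2.4.6, pandas 2.3.3 and Python 3.11.15.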

Additional observations from a re-analysis of the deposited data

How the results depend on the processing

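No paired analysis was possible because the table holds 1 value per population, and for the same reason no library could be left out. The count of 30 higher members was 28 when the most abundant transcript had to pass (Lamp2 and Galns lost), 24 at an adjusted p of 0.01 (Gusb, Fuca2, Ids, Smpd1, Ppt1 and Dnase2a lost) and 30 with coding transcripts alone, with 1 lower member under each. The 1.5-fold count of 29 became 24 after scaling to the median gene of each column, a shift of 0.10 on the log2 scale. The members' median log2 fold of 0.63 became 0.53 with that scaling, 0.66 with a pseudocount of 0.1 and 0.64 at 5 FPKM or more. Genes of the 4 lists without members called higher numbered 31, and 19 at an adjusted p of 0.01. Shares of all tested genes under these settings were not computed, so the counts stand without a background. No called member changed direction, which these settings could hardly bring about, as thresholds and pseudocounts leave the side of a summed FPKM unchanged. The shift of 0.10 was also small beside the smallest log2 fold of a higher member, 0.54. Since the table gives neither counts nor depth, no counting interval could be computed.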

Other observations

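Members were also grouped by the material they degrade, a step taken after the values were seen and so given without a test. Of all tested genes, 11.0% were higher. All 5 members that act in heparan sulfate breakdown, Idua, Ids, Sgsh, Naglu and Gusb, were higher in CD301b macrophages, with ratios from 1.55-fold for Gusb to 2.60-fold for Sgsh. Hgsnat, a further gene of that pathway that acetylates the chain end, was 26.9 FPKM in CD301b macrophages and 17.8 FPKM in F4/80-negative cells and was higher. Sphingolipid breakdown was split, with 6 of 10 members higher and 4 not past the threshold, namely Gla, Neu1, Arsa and Gm2a. Of 5 members whose loss causes neuronal ceroid lipofuscinosis, a group of lysosomal storage diseases, 4 were higher, and Cln3 was not past the threshold. Igf2r, the larger mannose phosphate receptor, also chosen after its values were seen, was 14.5 FPKM in CD301b macrophages and 16.2 FPKM in F4/80-negative cells, so neither receptor of the tag was past the threshold.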
